A study of Mus musculus with 12 samples.

Results

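The comparison described here set KO macrophages given oxidised LDL (oxLDL) against untreated KO macrophages, all on an ApoE-null background. Its members were chosen by title: 2 libraries titled oxLDL_KO and 2 titled KO, both marked ApoE KO, which makes 4 of the 12 libraries of the series. The cells were primary bone marrow-derived macrophages (BMDMs) of mouse, and all 4 libraries carried the genotype Baf60a f/f, Lyz2 Cre+, ApoE KO. Cre under the Lyz2 promoter deletes the floxed gene in cells of the myeloid lineage, so the deletion need not be complete in every cell, and the ApoE knockout is given for treated and untreated cells alike. The treated cells received oxLDL at 50 µg/ml for 48 h, and no agent is given for the untreated cells. Open chromatin was mapped in cryopreserved cells by ATAC-seq, whose transposase cuts accessible DNA and adds sequencing adapters to it. The deposited files are 1 peak list per library on genome build mm10. The labels do not state whether the replicates are separate mice or cultures, so every p-value below measures the spread between these libraries, which may be technical. The lists of 3 of the 4 libraries carry one lane code in their names, and that of oxLDL replicate 1 carries another. For reference, 4 WT libraries of the same cohort (ApoE-null, 2 untreated and 2 oxLDL) and 2 KO libraries of a cohort made with the Omni-ATAC protocol (1 untreated and 1 oxLDL, no ApoE status in the labels) were read in the same way.

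Macrophages take up oxLDL through scavenger receptors such as CD36 and MSR1, break it down in lysosomes, store the freed cholesterol as esters in lipid droplets and become foam cells. Oxysterols activate LXR, which turns on cholesterol export, oxidised fatty acids activate PPARγ, and a full sterol pool keeps SREBP2 from turning on sterol synthesis. Smarcd1 encodes BAF60A, through which transcription factors recruit the SWI/SNF complex that moves and evicts nucleosomes. ApoE is itself an LXR target that macrophages secrete to carry cholesterol away.

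The promoters shown next lie wholly inside a called region. Evi5 and Fbrs had the smallest p among promoters that ranked higher with oxLDL, and Sgms1 and Tbpl1 among those that ranked lower. Cped1 and Prkcq carried the strongest promoter region called in both libraries of 1 treatment and in neither of the other. Evi5 encodes a GTPase-activating protein that acts on RAB GTPases, Fbrs fibrosin and Sgms1 sphingomyelin synthase 1. Tbpl1 encodes a relative of the TATA-binding protein, and Prkcq protein kinase C theta. Each runs 5′ to 3′ from 250 bases before to 50 bases after an annotated start (RefSeq, GRCm38.p6, the assembly of mm10). Capitals mark AP-1 (TGANTCA), the ETS core (GGAAGT) and the GC box (GGGCGG) on either strand, so that ACTTCC and CCGCCC are the same motifs read on the other strand.
Evi5 (chr5:107868999-107869298, minus strand): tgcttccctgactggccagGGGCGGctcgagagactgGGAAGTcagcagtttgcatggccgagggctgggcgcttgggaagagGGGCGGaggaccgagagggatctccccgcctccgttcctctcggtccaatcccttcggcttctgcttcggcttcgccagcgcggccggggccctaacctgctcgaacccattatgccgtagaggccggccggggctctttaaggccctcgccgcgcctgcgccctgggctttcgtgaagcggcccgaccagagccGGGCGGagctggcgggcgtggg
Fbrs (chr7:127478708-127479007, plus strand): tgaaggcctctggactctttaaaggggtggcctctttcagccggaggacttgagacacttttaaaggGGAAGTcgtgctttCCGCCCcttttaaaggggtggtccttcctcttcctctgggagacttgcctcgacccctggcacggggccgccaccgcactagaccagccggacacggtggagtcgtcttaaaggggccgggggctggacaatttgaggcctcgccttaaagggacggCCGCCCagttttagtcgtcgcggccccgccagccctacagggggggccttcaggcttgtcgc
Sgms1 (chr19:32210964-32211263, minus strand): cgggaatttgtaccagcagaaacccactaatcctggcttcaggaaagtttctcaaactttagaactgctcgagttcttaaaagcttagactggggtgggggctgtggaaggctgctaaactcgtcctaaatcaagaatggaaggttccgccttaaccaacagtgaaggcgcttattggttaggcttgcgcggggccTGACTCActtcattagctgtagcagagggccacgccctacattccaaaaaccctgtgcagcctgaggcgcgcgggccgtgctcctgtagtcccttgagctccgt
Tbpl1 (chr10:22731398-22731697, minus strand): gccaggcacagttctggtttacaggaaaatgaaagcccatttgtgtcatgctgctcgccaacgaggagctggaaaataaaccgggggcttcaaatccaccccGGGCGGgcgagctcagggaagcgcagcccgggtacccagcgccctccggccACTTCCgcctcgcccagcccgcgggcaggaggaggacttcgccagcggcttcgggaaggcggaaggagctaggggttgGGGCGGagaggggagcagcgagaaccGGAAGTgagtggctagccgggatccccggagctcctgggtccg
Cped1 (chr6:21985660-21985959, plus strand): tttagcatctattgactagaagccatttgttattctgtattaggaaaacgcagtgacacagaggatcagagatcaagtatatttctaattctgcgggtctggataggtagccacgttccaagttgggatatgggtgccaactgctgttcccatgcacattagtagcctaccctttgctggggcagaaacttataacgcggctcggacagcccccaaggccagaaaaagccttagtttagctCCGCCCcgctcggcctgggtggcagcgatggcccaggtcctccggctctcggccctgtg
Prkcq (chr2:11172132-11172431, plus strand): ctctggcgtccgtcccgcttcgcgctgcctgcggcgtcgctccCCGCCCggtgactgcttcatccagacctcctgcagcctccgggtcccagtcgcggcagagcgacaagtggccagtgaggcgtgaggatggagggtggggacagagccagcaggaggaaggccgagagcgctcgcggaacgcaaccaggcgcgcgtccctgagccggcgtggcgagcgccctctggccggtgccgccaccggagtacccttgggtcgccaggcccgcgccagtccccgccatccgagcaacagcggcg

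The peak lists of the treated and the untreated cells overlapped in almost every overall measure, and untreated replicate 1 stood apart from the other 3 libraries. The untreated libraries had 44524 and 33267 peaks and the oxLDL libraries 35589 and 33934. The means were 38896 ± 7960 (SD, n = 2) and 34762 ± 1170 (SD, n = 2), a fold of 0.903 (exact permutation test on log2 values, two-sided, p = 1). With 2 libraries against 2 the smallest p this test can give is 0.333, so no overall measure could pass a threshold of 0.05. Peaks covered 25.3 and 16.1 Mb in untreated cells and 14.4 and 17.7 Mb with oxLDL. Without untreated replicate 1 the log2 difference in peak number was 0.06 in place of -0.15, and within the 3 libraries of one lane code, without oxLDL replicate 1, it was -0.18. The files hold no reads, so the depth behind each list is unknown.

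Width and strength were compared in lists of equal length, the 33267 peaks with the highest score in each library. The median width was 588 and 381 bp in untreated cells and 323 and 428 bp with oxLDL. The median fold enrichment, the peak caller's ratio of signal to local background, was 5.01 and 3.51 untreated and 3.80 and 3.44 with oxLDL. In both measures untreated replicate 1 was the highest of the 4 and untreated replicate 2 lay within the oxLDL range. The median score, which grows with the significance of a peak, was 169 and 89 untreated and 93 and 107 with oxLDL. Mean differences were -109 bp (exact permutation p = 0.667), -0.64 in fold enrichment (exact permutation p = 0.667) and -29 in score (exact permutation p = 1). Without untreated replicate 1 the difference in width was -5.5 bp, that in fold enrichment 0.113 and that in score 11. Within the 23682 regions called in all 4 libraries the median length covered by a library's peaks was 723 and 522 bp untreated and 452 and 565.5 bp with oxLDL, the same order of libraries.

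The share of peaks at gene boundaries was the measure in which the groups did not overlap. Of the equal-length lists, 27.4% and 28.4% of untreated peaks and 29.0% and 28.5% of oxLDL peaks had their summit within 1 kb of the start or end of a protein-coding gene. The mean difference was 0.855 percentage points (exact permutation p = 0.333), and it was -0.688 points when only the stronger 50% of each list was kept. Peaks inside genes made up 39.7%, 39.1%, 39.0% and 39.6% of the 4 lists in the same order. In the WT cells of the cohort the boundary share was 34.5% and 33.9% untreated and 34.2% and 35.7% with oxLDL, and those groups overlapped.

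**Figure D1:**
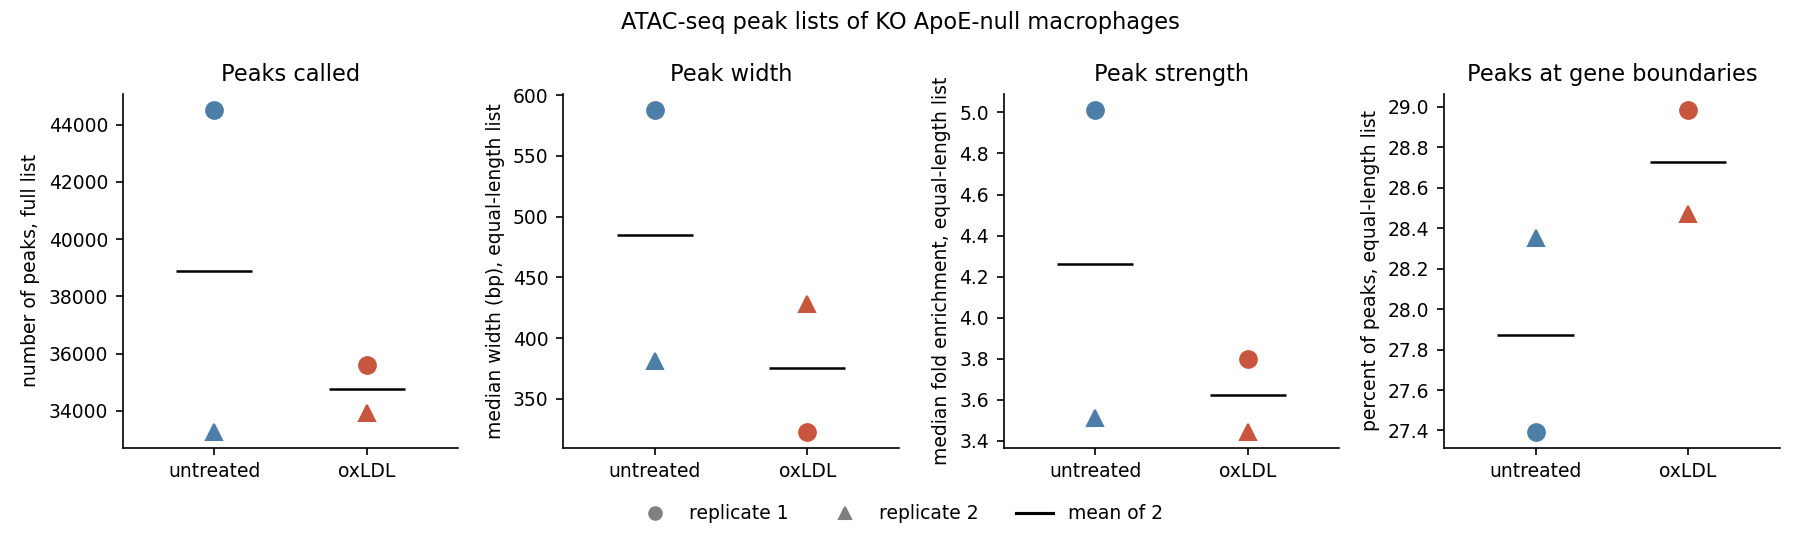
Number of peaks in the full lists, and median width, median fold enrichment and percent of peaks within 1 kb of a gene boundary in lists of 33267 peaks, for untreated (blue) and oxLDL (red) KO libraries. Circles are replicate 1, triangles replicate 2, lines the mean of 2, and the vertical axes do not start at 0. Untreated replicate 1 is the highest point in the first 3 panels, with 44524 peaks, 588 bp and 5.01.

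Merging the 4 lists gave 53079 regions, and 23682 of them (44.6%) were called in all 4 libraries. Regions called in both untreated libraries and in neither oxLDL library numbered 2010 (3.79% of regions), and those called in both oxLDL libraries and neither untreated library 556 (1.05%). The excess on the untreated side was smaller between lists of equal length, with 1316 (2.94%) and 994 (2.22%) of 44784 regions. Patterns of another kind were more common: 11433 regions were called in 1 untreated library alone and 5475 in 1 oxLDL library alone. The counts are given with no test: with 2 libraries a side an exact permutation test of the calls at 1 region cannot give a p below 0.333. In WT cells the same counts were 2774 (6.14%) and 171 (0.378%) of 45213 regions in full lists, and 1077 (3.24%) and 676 (2.03%) of 33246 in lists of equal length. There both untreated libraries carry one lane code and both oxLDL libraries the other, so lane code and treatment cannot be told apart in WT cells.

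**Figure D2:**
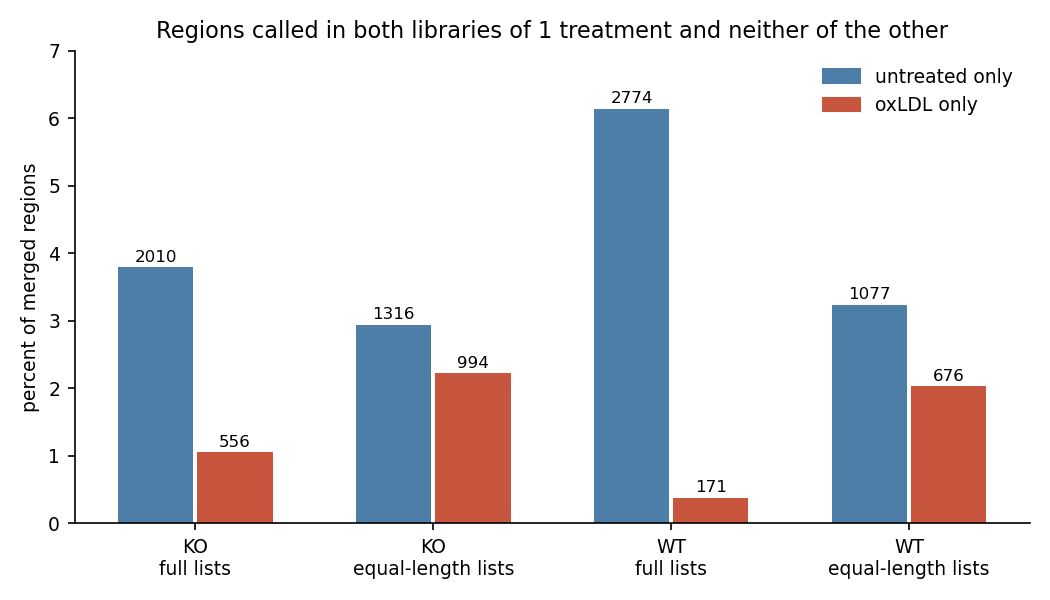
Percent of merged regions called in 2 of 2 libraries of 1 treatment and 0 of 2 of the other, in KO and WT cells of the ApoE-null cohort, with the number of regions above each bar. Blue bars are untreated only and red bars oxLDL only, from full lists or lists of equal length. The KO bars are 3.79% and 1.05% in full lists and 2.94% and 2.22% in lists of equal length.

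Regions called in 1 treatment were weaker and narrower than shared regions and more often far from gene boundaries. The 26831 regions with mixed calls, in neither treatment-only set and not shared, were narrow and far from boundaries as well. The median of the lower of a region's 2 fold enrichments was 2.65 for untreated-only and 2.59 for oxLDL-only regions, and 3.68 over all 4 values for shared regions. Their median width was 343.5 and 265 bp, against 787 bp for shared and 241 bp for mixed regions. A gene boundary lay within 1 kb of the centre of 8.66% and 10.1% of them, against 34.3% of shared and 10.9% of mixed regions, and 47.0% and 47.3% lay inside genes, against 36.5% and 47.5%. Position therefore did not set them apart from mixed regions. In the Omni-ATAC cohort, whose lists were longer, 94.8% of untreated-only and 87.2% of oxLDL-only regions had a peak in both KO libraries, beside 88.7% of all regions. Those seen there without oxLDL and not with it were 3.68% and 2.34%, beside 4.16% of all regions, 7.80% of mixed and 0.127% of shared ones, so neither share was above that of all regions. No peak in either Omni-ATAC KO library was found for 1.54% of untreated-only and 10.3% of oxLDL-only regions, and for 6.77% of all regions.

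Most regions called in 1 treatment in KO cells were not so called in WT cells. Of the 2010 KO untreated-only regions, 239 (11.9%) overlapped a WT untreated-only region, which is 8.62% of the WT set. Read as calls at the KO region itself, that WT pattern was found at 11.9% of the KO untreated-only regions, 4.32% of the KO oxLDL-only ones, 5.79% of those with mixed calls and 4.78% of all regions, so it was more frequent in the KO untreated-only set. Of the 556 KO oxLDL-only regions, 1 (0.180%) overlapped a WT oxLDL-only region (0.585% of the WT set). Read as calls at the KO region itself, the WT oxLDL-only pattern was rare everywhere. It was found at 0.360% of the KO oxLDL-only regions, 0.306% of those with mixed calls and 0.292% of all regions. In WT cells 31.0% of the KO untreated-only and 52.9% of the KO oxLDL-only regions were called in none of the 4 libraries, beside 29.7% of all KO regions, 54.3% of those with mixed calls and 1.19% of the shared ones.

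The strongest untreated-only regions lay mostly outside genes. The first by fold enrichment in the weaker library lay 69.6 kb from Pou1f1, a pituitary transcription factor gene (chr16:65450717-65451180), with 4.78 and 5.00. It was also called in 2 of 2 untreated and 0 of 2 oxLDL WT libraries. The next was 8.13 kb from Tspan33, a tetraspanin gene (chr6:29685935-29686238), with 5.04 and 4.53. A region 15.8 kb from Stx7, which encodes a syntaxin of late endosome fusion (chr10:24133278-24133632), had 5.34 and 4.32. A region over the start boundary of Dynlt1f, a dynein light chain gene (chr17:6655190-6656052), had 5.04 and 4.32, and it was the only one of the 10 at a boundary. A region 39.3 kb from Anxa5, the gene of the phosphatidylserine-binding annexin A5 (chr3:36409477-36409800), had 4.27 and 4.42. The others lay 96.5 kb from Rasgrp1, 111 kb from Ulbp1 and inside Rims2, Fry and Septin11. All 10 were called in both KO libraries of the Omni-ATAC cohort, with the higher score in the untreated one. Scores were higher in that untreated list as a whole, with a median of 266 against 216 with oxLDL. A higher untreated score there is therefore no sign of direction at a single region. The regions near Stx7, Dynlt1f, Anxa5 and inside Septin11 were called in at least 1 WT oxLDL library.

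The strongest oxLDL-only regions lay outside genes in 7 of 10 cases, and some of them in families of repeated genes. The first lay 5.11 kb from Ankrd31, an ankyrin repeat gene known from meiosis (chr13:96742995-96743367), with fold enrichments of 4.72 and 4.91. The second lay 1.03 kb from Aplnr, the apelin receptor gene (chr2:85135241-85135421), with 4.20 and 4.02. Both also had a peak in both Omni-ATAC KO libraries, with the higher score in the untreated one, whose scores were higher as a whole. Regions inside Klb, the β-Klotho co-receptor gene (4.38 and 3.72), and inside Mylk, the myosin light chain kinase gene (5.10 and 3.71), followed. So did regions 434 kb from Vrk2, 12.1 kb from Gsx2 and 30.9 kb from Tubgcp3. Among the 10, the region with Vrk2 as its nearest gene was the one with a higher Omni-ATAC score with oxLDL (615) than without (420). The regions near Vmn2r49, a vomeronasal receptor gene, near Gm40469 and inside Gm38510 had no peak in the Omni-ATAC cohort, and the first 2 of these were called in all 4 WT libraries.

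Where several oxLDL-only regions lay near the same gene, the genes were mostly members of gene families. Reads can be placed at more than 1 copy where copies are alike in sequence, which was not tested here. These stretches were picked after the values were seen, as the neighbourhoods (50 kb on each side) of genes with at least 3 oxLDL-only regions. A stretch of chromosome 1 from Gm38510 over Gm7592 to Sp110, Sp140 and Sp100 (chr1:85105201-85759998) held 133 regions, 8 oxLDL-only and 0 untreated-only. Peaks were called in 73 and 96 of its regions in untreated cells and in 112 and 99 with oxLDL. None of the 8 was called in the Omni-ATAC cohort, and of all 133 regions 75 were not called there. The stretches at Smok2a and Smok2b, at Tcp10c, at H2-Q6, H2-Q7 and H2-Q10 and at Gm21698 had 6, 5, 3 and 3 oxLDL-only regions. Over all 6 stretches 28 of the 556 oxLDL-only regions were found, and 23 of these 28 had no Omni-ATAC peak, against 34 of the other 528. Of all 248 regions in the stretches 168 had no Omni-ATAC peak, against 3423 of the other 52831. Such regions were thus common in the stretches as a whole. Snrk, which encodes a kinase related to AMPK, was the only stretch whose 3 oxLDL-only regions were all called in the Omni-ATAC cohort. Whether the authors removed reads with more than 1 placement is not given in the sources used here.

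For the 23682 regions called in all 4 libraries, strength was compared as a percentile rank: in each library the regions were ranked by fold enrichment from 0 (weakest) to 100 (strongest), and limma tested the difference of the group means. No region passed an adjusted p of 0.05 with limma in either direction (0% of regions, lowest limma adjusted p = 0.556). At an unadjusted p under 0.05, 1028 regions (4.34%) ranked higher with oxLDL and 1002 (4.23%) lower, 2030 (8.57%) in both directions together. When the ranks were turned into normal scores before the limma fit, which gives more weight to the ends of the ranking, 14 regions passed higher and 7 lower, and the score column, lists of equal length, a stricter score, summit windows, a replicate block and leaving out any 1 library gave 0. Percentiles of the 2 untreated libraries correlated at r = 0.871 and those of the 2 oxLDL libraries at 0.873, and pairs across treatment at 0.833 to 0.851. These correlations are across regions, which are not replicates. The unadjusted shares of 4.34% and 4.23% are the background for all counts of shared regions given below.

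Among the regions on the higher side with the smallest p, the one with the largest difference lay inside Atp2b1, the gene of a plasma membrane calcium pump (chr10:98947838-98948494). Its percentile was 26.5 and 40.1 in untreated cells and 93.8 and 94.1 with oxLDL, so the groups were far apart. The difference was 60.6 ± 9.49 points (SE), with a limma adjusted p of 0.556. In normal scores the limma adjusted p of the same region was 0.00027. In the Omni-ATAC cohort it stood at 26.8 untreated and 56.2 with oxLDL, the same direction. In WT cells, ranked among the 17530 regions called in all 8 libraries of the cohort, it stood at 55.2 and 19.9 untreated and 16.2 and 11.2 with oxLDL. The difference of the KO and WT shifts there was 95.8 points (limma adjusted p = 0.686), so a difference between genotypes was not shown.

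The other regions on the higher side had high ranks throughout. The region 9.23 kb from Ccdc192 on chromosome 18, a coiled-coil gene, stood at 64.7 and 68.8 untreated and at 96.0 and 97.3 with oxLDL. The region 11.3 kb from 4930583I09Rik (chr17:64820789-64821573) stood at 69.9 and 79.5, then 98.2 and 96.9. Both passed in normal scores, with limma adjusted p of 0.00479 and 0.00573. The region 51.9 kb from Homer1, a scaffold gene of synapses, had a difference of 28.7 ± 4.97 points (SE) and did not pass on either scale. Of the 4 regions named on this side, Ccdc192 was the one that ranked lower with oxLDL in the Omni-ATAC cohort.

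On the lower side the region at Atp6v1h had the smallest p. Atp6v1h encodes subunit H of the vacuolar proton pump, which acidifies lysosomes. The region, 0.231 kb from a boundary of the gene (chr1:5082814-5083603), stood at 96.5 and 96.1 untreated and at 79.4 and 81.1 with oxLDL. A second region inside the gene (chr1:5106428-5106957) went the other way, with 82.1 and 78.4 untreated and 93.4 and 96.0 with oxLDL. The differences were -16.1 ± 2.71 and 14.4 ± 3.04 points (SE), each with a limma adjusted p of 0.556. In the Omni-ATAC cohort the first region hardly differed, at 72.2 untreated and 71.9 with oxLDL.

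The regions with the widest gaps on the lower side lay far from genes. The region 697 kb from Kcnj3 (chr2:56294625-56295242) stood at 85.7 and 75.9 untreated and at 12.9 and 13.2 with oxLDL. The region 93.9 kb from Trim52 (chr14:106011760-106012815) stood at 87.5 and 93.3, then 39.9 and 33.7, and the one 128 kb from Rgs18 (chr1:144902785-144903616) at 90.1 and 89.4, then 33.7 and 41.4. Kcnj3 encodes a potassium channel, Trim52 a ring finger protein and Rgs18 a regulator of G protein signalling of blood cells. All 3 passed in normal scores, with limma adjusted p of 0.00573, 0.00479 and 0.00538, and all 3 ranked lower with oxLDL in the Omni-ATAC cohort too. In WT cells, ranked among the regions called in all 8 libraries, the shift was -20.0 points near Trim52. It went the other way near Rgs18 (15.2 points) and Kcnj3 (7.58 points).

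Regions of both sphingomyelin synthase genes were among those that stood out, in opposite directions. They came from different selections and were set side by side after their values were seen. Sphingomyelin synthases make sphingomyelin, the membrane lipid that holds cholesterol at the cell surface. The region over an annotated start of Sgms1 (chr19:32210257-32211559), whose promoter is printed above, stood at 92.0 and 94.8 untreated and at 75.4 and 77.5 with oxLDL, a difference of -16.9 ± 3.38 points (SE, limma adjusted p = 0.556). A region inside Sgms2 (chr3:131474364-131474911) stood at 54.0 and 44.7 untreated and at 88.9 and 92.8 with oxLDL, and it passed in normal scores alone (limma adjusted p = 0.0125). The Omni-ATAC cohort had the Sgms2 region higher with oxLDL (20.6 and 60.8) and the Sgms1 region higher as well (59.6 and 79.2). In WT cells the Sgms2 region stood at 39.2 and 28.0 untreated and at 31.0 and 23.0 with oxLDL. The Sgms1 region stood there at 86.3 and 83.6, then 77.6 and 82.9. Other regions that passed in normal scores alone included one 8.08 kb from Pon3, a paraoxonase gene whose product rides on HDL (24.1 and 6.44, then 80.5 and 86.0), and one 74.2 kb from Inhba, the activin A gene (16.4 and 30.8, then 79.4 and 90.3).

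**Figure D3:**
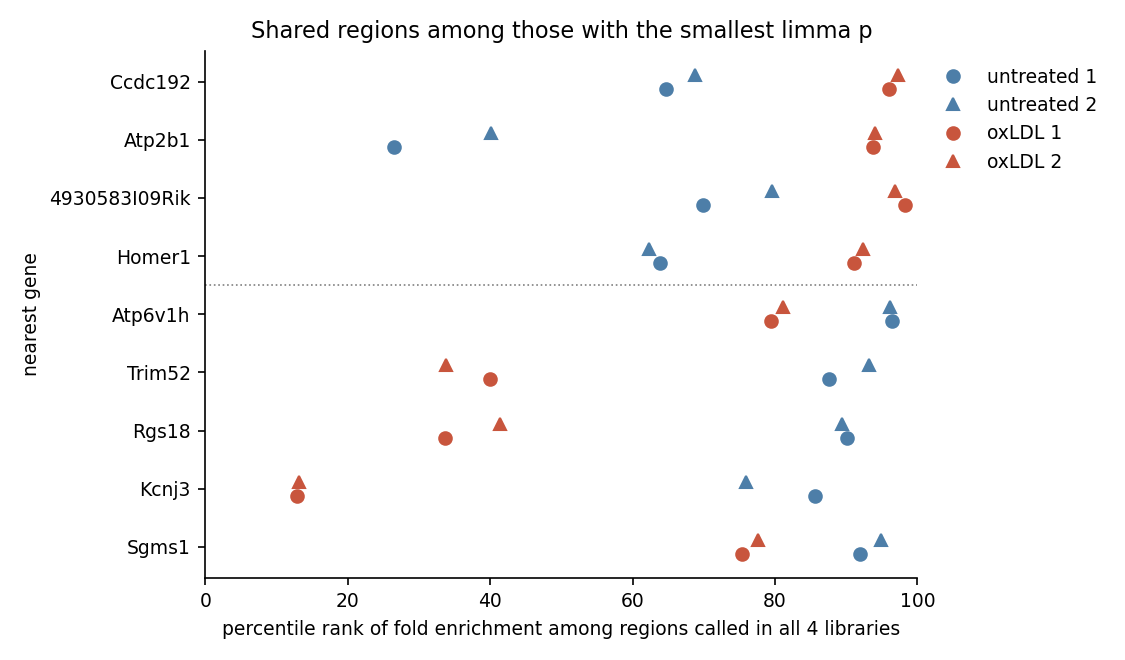
Percentile rank of fold enrichment (horizontal axis, 0 to 100) of 4 regions higher and 5 lower with oxLDL, taken from the 5 per direction with the smallest limma p and named by the nearest gene, in each of the 4 KO libraries. Blue is untreated and red oxLDL, circles are replicate 1 and triangles replicate 2. In each row the 2 colours do not overlap, and the widest gaps are at Kcnj3 and Atp2b1; the regions were picked by this difference and none passed an adjusted p of 0.05.

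The direction of the shifts differed by position. Of 8124 shared regions at gene boundaries, 195 (2.40%) ranked higher and 303 (3.73%) lower at an unadjusted p under 0.05. Inside genes the order was reversed, with 478 (5.53%) higher and 345 (3.99%) lower of 8644. Regions up to 50 kb from a gene had 248 and 244 of 4916, and those farther away 107 and 110 of 1998, which were even. Median shifts were small, -0.254 points at boundaries and 0.410 points inside genes, and the median over all shared regions was -0.002. Boundary regions also ranked higher to begin with, with a median percentile of 64.2 against 41.5 inside genes.

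At promoters the shifts went with base composition and with the ETS core. Promoter entries matched 16457 of 20665 genes, with 20085 promoters in all, and 7148 of these lay wholly in a shared region. GGAAGT was present in 25% of all promoters, in 31.3% of those in shared regions, in 43.0% of the 279 that ranked lower at an unadjusted p under 0.05 and in 19.5% of the 154 that ranked higher. The GC box was present in 47.0%, 72.5%, 58.8% and 74.0% of the same 4 sets. Median GC content was 57%, 63.3%, 59.3% and 64.7%, so it moved with the motifs, and its part in the motif shares was not tested. AP-1 was in 4.00% of promoters in shared regions, 5.38% of the lower and 6.49% of the higher set, and the C/EBP motif (TTGCNNAA) in 7.16%, 6.81% and 7.14%. The CRE (TGACGTCA) was in 3.97%, 4.30% and 3.25%, and the antioxidant response element (TGACNNNGC) in 15.6%, 11.8% and 18.2%. The TATA box (TATAAA) was in 4.91%, 6.81% and 7.14%. Over all promoters AP-1 was in 7.06%, the C/EBP motif in 10.3%, the CRE in 2.3%, the antioxidant response element in 13.1% and the TATA box in 12.7%. Every motif was searched on both strands, and the antioxidant response element can overlap AP-1 or the CRE.

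Split into tertiles by GC content, 5800 shared promoter regions showed the same order. In the lowest tertile (median GC 54.7%) the mean percentile was 66.4 and 65.4 in untreated cells and 63.4 and 64.1 with oxLDL. In the highest tertile (median GC 71.3%) it was 62.5 and 62.5 untreated and 64.1 and 63.0 with oxLDL. The groups did not overlap in the lowest or the highest tertile. In the middle tertile they did, at 67.6 and 66.8 untreated and 66.2 and 66.9 with oxLDL. In each tertile the shift was small beside the range of 0 to 100. Spearman's rho of GC content and shift was 0.15 across these regions, which share libraries and are not independent. Within the lowest tertile the median shift was -1.98 points for 780 promoters with GGAAGT and -0.755 for 1182 without it, and in the highest 0.211 for 396 with it and 0.775 for 1525 without it. The printed promoters show both compositions: Tbpl1, which stood at 95.8 and 93.4 untreated and at 81.6 and 78.8 with oxLDL, carries 2 ETS cores and 2 GC boxes, and Sgms1 carries 1 AP-1 motif and neither of the others. Evi5 (69.7 and 64.8, then 93.8 and 87.0) and Fbrs (71.2 and 64.9, then 91.1 and 88.1) carry 1 ETS core each and 3 and 2 GC boxes.

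**Figure D4:**
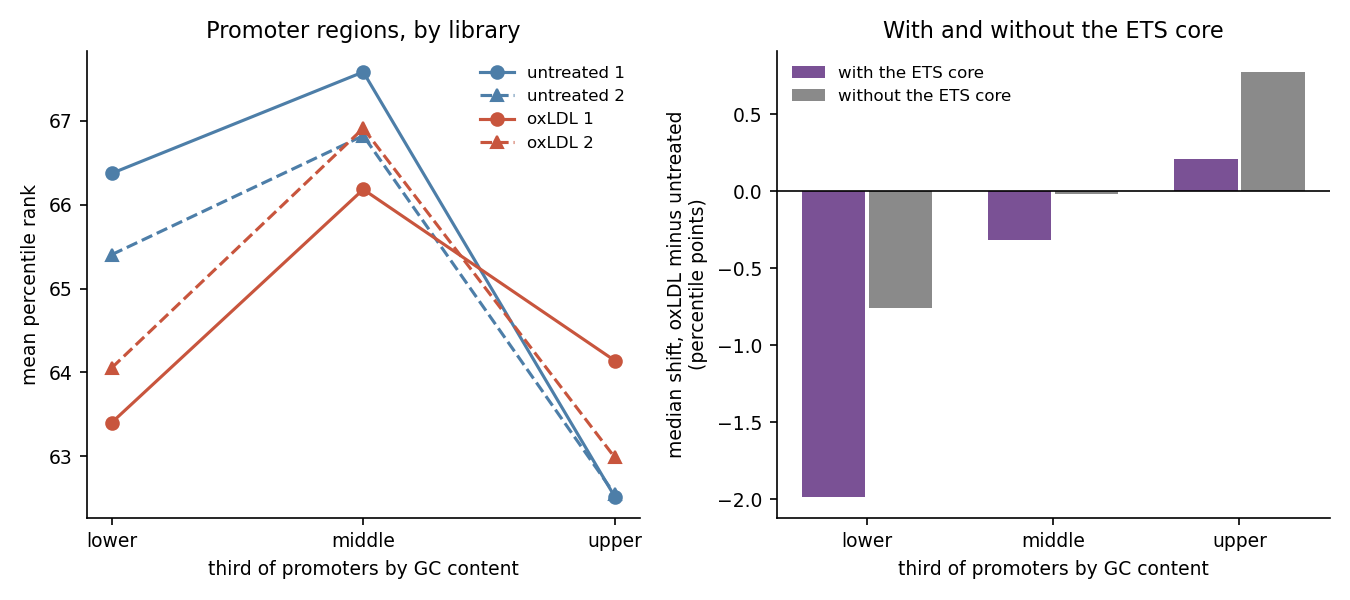
Left, mean percentile rank of 5800 shared promoter regions in tertiles of GC content for each KO library (blue untreated, red oxLDL, vertical axis not from 0). Right, median shift in percentile points, oxLDL minus untreated, for promoters with and without the ETS core in the same tertiles. With rising GC content the shift goes from below 0 to above 0, and it is lower with the ETS core in each tertile.

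Promoters called in 1 treatment were rare. A promoter lay wholly in 17 untreated-only and 2 oxLDL-only regions. That of Cped1 had fold enrichments of 5.21 and 3.53 in the untreated libraries and no peak with oxLDL. That of Prkcq, known for its role in T cell receptor signalling, had 2.99 and 2.53 with oxLDL and no peak without it.

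The targeted genes were examined next. The region at the start of Smarcd1 (chr15:99702016-99702648) was called in all 4 libraries, at percentile 4.77 and 15.4 untreated and 4.36 and 12.1 with oxLDL, among the weak shared regions in each. Which exons were floxed is not given here, so this peak checks nothing about the deletion. Lyz2, whose locus drives Cre, had a shared region at its start at 35.5 and 71.5 untreated and 41.0 and 48.6 with oxLDL. At Apoe, labelled as knocked out in all these cells, 4 regions lay within 1 kb of the start, and the nearest (chr7:19700879-19701160) was called in untreated replicate 2 and oxLDL replicate 1 only, with fold enrichments of 1.66 and 1.77. Which part of Apoe the knockout allele lacks is not given here either, so these peaks check nothing about it.

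Genes were then read by role, each with its regions within 50 kb on either side, for 24 lists of which 454 of 464 genes matched. Of all 20665 protein-coding genes, 3491 (16.9%) had an untreated-only region in this window and 1025 (4.96%) an oxLDL-only region. No region of any list passed an adjusted p of 0.05 with limma, so each count below refers to an unadjusted p under 0.05 or to calls. Regions of list genes named only for such a p were picked after their values were seen. Lists that share neighbouring genes share regions.

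Scavenger receptor genes showed no common direction. Over the 17 genes of modified LDL uptake 44 of 82 shared regions ranked higher and 38 lower, with a median shift of 1.65 points. Msr1, which encodes scavenger receptor A, had a region over its boundary (chr8:39642079-39643058) at 75.3 and 73.3 untreated and at 48.8 and 57.7 with oxLDL, -21.0 ± 9.10 points (SE, limma adjusted p = 0.581). All 4 shared regions of Msr1 ranked lower, and the groups did not overlap at that boundary. In the Omni-ATAC cohort the boundary region differed by 11.2 points in the other direction. Cd36, the main oxLDL receptor, had 12 shared regions, 9 higher and 3 lower, and 3 untreated-only regions inside the gene, the strongest in its weaker library with 2.82 and 2.94. Olr1, the LOX-1 gene, had a start region in untreated replicate 1 alone and 1 oxLDL-only region 37.0 kb away (2.53 and 2.48). Stab2 had a shared region inside the gene at 21.0 and 42.9 untreated and at 60.3 and 79.4 with oxLDL, and Marco one nearby at 8.09 and 0.636, then 21.0 and 40.8. Each of these genes also had an untreated-only region, with 3.37 and 2.45 at Stab2 and 2.64 and 2.94 at Marco. On the lower side, a region 39.6 kb from Scarf1 stood at 25.1 and 29.0, then 3.99 and 3.40, and one 44.3 kb from Cxcl16 at 16.8 and 30.8, then 2.80 and 5.48. In all 3 were higher and 2 lower at an unadjusted p under 0.05.

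Genes of cholesterol export and LXR had untreated-only regions at about the share of all regions. They had no oxLDL-only region, beside 1.05% of all regions. Of 27 genes, 12 had an untreated-only region, and they shared 9 regions (3.83% of the list's 235, beside 3.79% of all regions). The strongest, with 4.03 and 3.73, lay between 2.53 and 12.3 kb from Apoc4, Apoc1, Apoc2 and Apoe (chr7:19683809-19684165). It was called in 1 of 2 untreated and 0 of 2 oxLDL WT libraries. Between lists of equal length the list had 6 untreated-only and 2 oxLDL-only regions. Abca1, the transporter that loads cholesterol onto apolipoprotein A-I, stood at 77.9 and 76.1 untreated and at 60.6 and 61.3 with oxLDL at its start, -16.0 ± 7.32 points (SE, limma adjusted p = 0.593). Its groups did not overlap, and the Omni-ATAC start region differed by 23.2 points in the other direction. Nr1h3, which encodes LXRα, stood at 48.8 and 36.1 untreated and at 71.5 and 37.1 with oxLDL at its start, where the groups overlapped. Abcg1, a partner exporter to HDL, had a region at its boundary in untreated replicate 1 alone (3.41). Pltp, the phospholipid transfer protein gene, and Lpl, the lipoprotein lipase gene, had the next strongest untreated-only regions, with 3.51 and 3.48 and with 4.43 and 3.43.

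Over the whole export and LXR list 5 of 124 shared regions were higher and 1 lower at an unadjusted p under 0.05. The lower one lay 6.29 kb from Apoc2, at 29.2 and 29.5 untreated and at 10.8 and 11.2 with oxLDL. One of the higher ones lay inside Abcg2, a transporter gene, at 18.7 and 17.9, then 59.1 and 36.3. Soat1, which encodes the acyltransferase that makes cholesterol esters, had 2 of the higher regions inside the gene. They stood at 12.4 and 13.5 untreated and 47.5 and 28.9 with oxLDL, and at 13.1 and 7.53 untreated and 44.4 and 25.1 with oxLDL. A region within Nceh1, an ester hydrolase gene, stood at 0.530 and 0.994, then 24.2 and 9.60. Lipa, which encodes lysosomal acid lipase, had a strong region inside the gene at 88.9 and 91.4, then 97.3 and 97.0 (7.00 ± 2.02 points, SE, limma adjusted p = 0.556). Nceh1 and Lipa also had 1 untreated-only region each, with 2.10 and 2.13 and with 3.27 and 2.16, so their regions did not all go one way.

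At Pparg, the gene of the lipid-activated receptor PPARγ, regions downstream of the gene ranked higher with oxLDL while the start did not. The start region differed by 3.19 ± 10.3 points (SE, limma adjusted p = 0.948), with overlapping groups. A region 29.1 kb past the gene (chr6:115519260-115519773) stood at 4.69 and 15.3 untreated and 63.0 and 56.8 with oxLDL, 49.9 ± 11.6 points (SE, limma adjusted p = 0.556). Another, 21.3 kb past it, stood at 9.66 and 22.9, then 57.1 and 40.2, and one 26.3 kb upstream at 56.3 and 40.1, then 11.5 and 13.2. An untreated-only region lay inside the gene (chr6:115469388-115470184, 3.40 and 3.14). Plin2, which encodes the coat protein of lipid droplets, had 3 untreated-only regions (5.29 and 2.35 at one of them) and a start region at 67.0 and 77.5 untreated and 58.8 and 74.3 with oxLDL. Angptl4, a PPAR target that inhibits lipoprotein lipase, had a region over its boundary at 24.5 and 19.6 untreated and 47.5 and 44.6 with oxLDL, 24.0 ± 11.1 points (SE, limma adjusted p = 0.595). Fabp4 had a region at its boundary in untreated replicate 1 alone (3.15). Over the 26 genes of PPAR and lipid droplets 43 of 91 shared regions ranked higher. The list had 7 untreated-only (3.29%) and 4 oxLDL-only regions (1.88%), beside 3.79% and 1.05% of all regions. Between lists of equal length these were 6 and 8, and the order turned.

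Shared regions of the sterol synthesis list were higher more often than lower. Of 73 shared regions 49 (67.1%) ranked higher and 24 lower, with a median shift of 1.85 points, beside 50.0% and -0.002 over all shared regions. At an unadjusted p under 0.05, 6 were higher and 1 lower. The region 49.3 kb from Sqle, the squalene epoxidase gene, stood at 32.6 and 32.6 untreated and at 70.4 and 83.9 with oxLDL. The lower one lay inside Srebf1, at 19.8 and 15.6, then 2.27 and 1.40. Srebf2 itself stood at 79.2 and 57.6 untreated and 70.5 and 77.8 with oxLDL at its start, with overlapping groups. The list had 4 untreated-only (2.63%) and 2 oxLDL-only regions (1.32%), beside 3.79% and 1.05% of all regions. Between lists of equal length these were 3 and 0.

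Antioxidant genes of NRF2 were mixed. Of 117 shared regions 58 ranked higher and 59 lower, and at an unadjusted p under 0.05, 8 were higher and 5 lower. Among those on the higher side, a region 1.32 kb past Fth1, which encodes the ferritin heavy chain, stood at 6.78 and 3.51 untreated and 31.4 and 45.3 with oxLDL, and one 1.41 kb from Ftl1, the light chain gene, at 7.74 and 4.85, then 18.6 and 25.6. A region near Prdx1 stood at 1.65 and 4.73, then 37.6 and 37.9. Among those on the lower side were a region inside Slc7a11, the cystine importer gene (86.7 and 91.0, then 73.9 and 77.9), one near Gclm and one near Hmox1. Hmox1, the heme oxygenase gene, stood at 61.6 and 52.3 untreated and 68.2 and 56.8 with oxLDL at its boundary. The list had 6 untreated-only regions (2.90%), of Bach1, Gclc, Gclm and Fth1 (2 of the 6), and no oxLDL-only region, beside 3.79% and 1.05% of all regions. Between lists of equal length it had 2 and 2, so the difference between the sides was not kept.

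Inflammatory genes had more untreated-only than oxLDL-only regions, in about the proportion of all regions. Of 36 NF-kB genes, 14 had an untreated-only and 4 an oxLDL-only region, which is 14 (4.86%) and 4 (1.39%) of the list's 288 regions, beside 3.79% and 1.05% of all regions. Il6, Rel and Il10 had untreated-only regions with 3.90 and 3.34, 4.15 and 3.14, and 3.04 and 2.95. In lists of equal length 10 and 5 were counted. A strong shared region 25.5 kb from Cxcl2 and 38.3 kb from Cxcl1, which encode neutrophil chemokines (chr5:90930777-90932096), stood at 94.3 and 94.0 untreated and at 83.7 and 80.3 with oxLDL, -12.1 ± 2.84 points (SE, limma adjusted p = 0.556). A region near Icam1, the gene of a leukocyte adhesion molecule, stood at 27.6 and 26.3, then 2.24 and 4.22. In the list as a whole 5 shared regions were higher and 4 lower at an unadjusted p under 0.05. The higher ones lay near Nfkb2 (2 regions), Nfkbiz, Tlr4 and the Ccl3 and Ccl4 genes. The region near Nfkbiz stood at 44.2 and 17.9, then 65.4 and 66.9, and the one 5.66 kb from Tlr4, the lipopolysaccharide receptor gene, at 60.3 and 75.9, then 83.7 and 84.3. Il1b, the interleukin 1β gene, had 3 shared regions, 2 higher and 1 lower, none at its start, and no region called in 1 treatment alone.

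Interferon-stimulated genes had the largest share of oxLDL-only regions among the 16 lists of functions. Of the list's 199 regions 9 (4.52%) were oxLDL-only and 5 (2.51%) untreated-only, beside 1.05% and 3.79% of all regions. An oxLDL-only region lay near 10 of its 30 genes, beside 4.96% of all protein-coding genes. The Sp100, Sp110 and Sp140 genes share 4 of the 9 and the Ifit1, Ifit2 and Ifit3 genes 2 of them, and none of these 6 was called in the Omni-ATAC cohort. Of the other 3, one lay inside Gbp5 (3.11 and 2.85) and one near Oas1a (2.97 and 2.72). The count was 8 to 10 with lists of equal length, a stricter score, a minimum cover of the region or summit windows. Shared regions did not follow, with 39 of 87 higher and a median of -1.56 points.

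Macrophage genes had the largest share of untreated-only regions among those 16 lists. Of the 352 regions of 34 macrophage identity genes, 21 (5.97%) were untreated-only and 3 (0.852%) oxLDL-only, beside 3.79% and 1.05% of all regions. An untreated-only region lay near 16 of the genes, beside 16.9% of all protein-coding genes. Marker lists of other cell types, with few regions each, had higher shares: 3 of 37 regions (8.11%) for B cells, 4 of 40 (10%) for T and NK cells and 2 of 14 (14.3%) for fibroblasts. Runx1, a transcription factor of blood development, had 3 inside the gene, and Spi1, which encodes the macrophage factor PU.1, had 1. Csf1r (4.21 and 3.38), Fcgr1 (4.01 and 3.23), Mrc1 (3.40 and 3.17) and Fcgr3 (3.27 and 3.04) had the strongest. The count was 12 between lists of equal length, beside 4 oxLDL-only regions, where all regions gave 1316 and 994. Shared regions were even, with 75 higher and 84 lower and a median of -0.55 points. A region at the C1qa, C1qb and C1qc genes of complement (chr4:136892747-136893470) stood at 22.1 and 26.8 untreated and at 2.73 and 10.2 with oxLDL, and one 0.573 kb from Ctsl, a lysosomal protease gene, at 33.1 and 36.5, then 59.8 and 70.4.

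Other lists held regions on both sides. Of 28 lysosome and autophagy genes, 10 had an untreated-only region, and Atp6v0d2, a proton pump subunit gene of macrophages and osteoclasts, had 3 of the list's 13. These 13 were 4.91% of the list's regions and its 3 oxLDL-only regions 1.13%, beside 3.79% and 1.05% of all regions. Between lists of equal length the list had 7 untreated-only and 8 oxLDL-only regions. Genes of the unfolded protein response had 59 of 93 shared regions higher (63.4%, median 1.91 points), among them one beside Hspa5, the BiP chaperone gene, at 77.9 and 82.0 untreated and 91.1 and 86.6 with oxLDL. This list had 8 untreated-only regions (4.73%) and 1 oxLDL-only region (0.592%), and 4 and 2 between lists of equal length. Of the alternative activation list, a region near Arg1, the arginase gene, stood at 48.99 and 59.4, then 82.9 and 84.5 (29.5 ± 7.78 points, SE, limma adjusted p = 0.556), and one near Tgm2, a transglutaminase gene, at 28.1 and 35.1, then 74.2 and 64.4. Another region near Tgm2 went the other way (23.7 and 20.6, then 8.84 and 3.32), as did one near Mrc1 (27.0 and 13.2, then 1.95 and 4.74), and the list had 3 higher and 2 lower at an unadjusted p under 0.05. Chil3, the gene of the chitinase-like protein YM1, had an oxLDL-only region 5.07 kb away with 3.62 and 3.93 (chr3:106172462-106172812), just below the 10 strongest. It was called in no WT library and had the higher Omni-ATAC score with oxLDL (520, against 204 without).

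Of the remaining lists, matrix remodelling had the median farthest from 0 of the 16. Its genes had 39 of 89 shared regions higher and 50 lower (median -2.09 points), with 3 higher and 6 lower at an unadjusted p under 0.05. They had 7 untreated-only (3.78%) and 2 oxLDL-only regions (1.08%), beside 3.79% and 1.05% of all regions. Near Spp1, the osteopontin gene, a region stood at 89.7 and 86.1 untreated and 56.6 and 78.5 with oxLDL, and another at 4.25 and 14.7, then 39.9 and 50.2. SWI/SNF subunit genes had 49 of 109 shared regions higher. They had 7 untreated-only (3.10%) and 2 oxLDL-only regions (0.885%), none of them near Smarcd1. Between lists of equal length these were 3 and 5, and the order turned. Genes of HIF and glycolysis had 62 of 107 shared regions higher (57.9%, median 1.75 points), a shift close to that of the sterol synthesis list, with 6 higher and 2 lower at an unadjusted p under 0.05, and the strongest untreated-only region lay inside Slc2a1, the GLUT1 gene (3.88 and 3.12). AP-1 and immediate early genes had 53 of 110 higher, and Egr2 had both an untreated-only (3.54 and 3.24) and an oxLDL-only region (3.18 and 2.65). Cell cycle genes had 54 of 109 higher. They had 8 untreated-only regions (3.90%) and 1 oxLDL-only region (0.488%), beside 3.79% and 1.05% of all regions.

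Defining genes of macrophages had peaks in all 4 libraries. Of 10 macrophage markers, 10, 9, 10 and 9 had a peak at a gene boundary in untreated replicates 1 and 2 and oxLDL replicates 1 and 2. Of 8 B cell markers 1, 2, 0 and 0 did, of 9 T and NK cell markers 3, 2, 2 and 2, and of 8 neutrophil markers 2 in each library. Of 6 mast cell and basophil markers 0, 0, 1 and 1 did, of 7 dendritic cell markers 4, 2, 3 and 2, of 6 erythroid and megakaryocyte markers 3, 3, 3 and 2, and of 6 fibroblast markers 1, 0, 0 and 1. These counts differed by at most 2 genes between libraries. Of the 17 shared regions of neutrophil markers 8 ranked higher and 9 lower (median -0.86 points). Camp and Ltf had an untreated-only region each, and Ltf an oxLDL-only region too. The 1 region of that list with an unadjusted p under 0.05, 0.161 kb from S100a8, a neutrophil and monocyte calprotectin gene, stood at 66.7 and 51.1 untreated and at 89.3 and 85.7 with oxLDL. Changes in the number of cells of a type and in accessibility per cell cannot be told apart in bulk libraries.

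**Figure D5:**
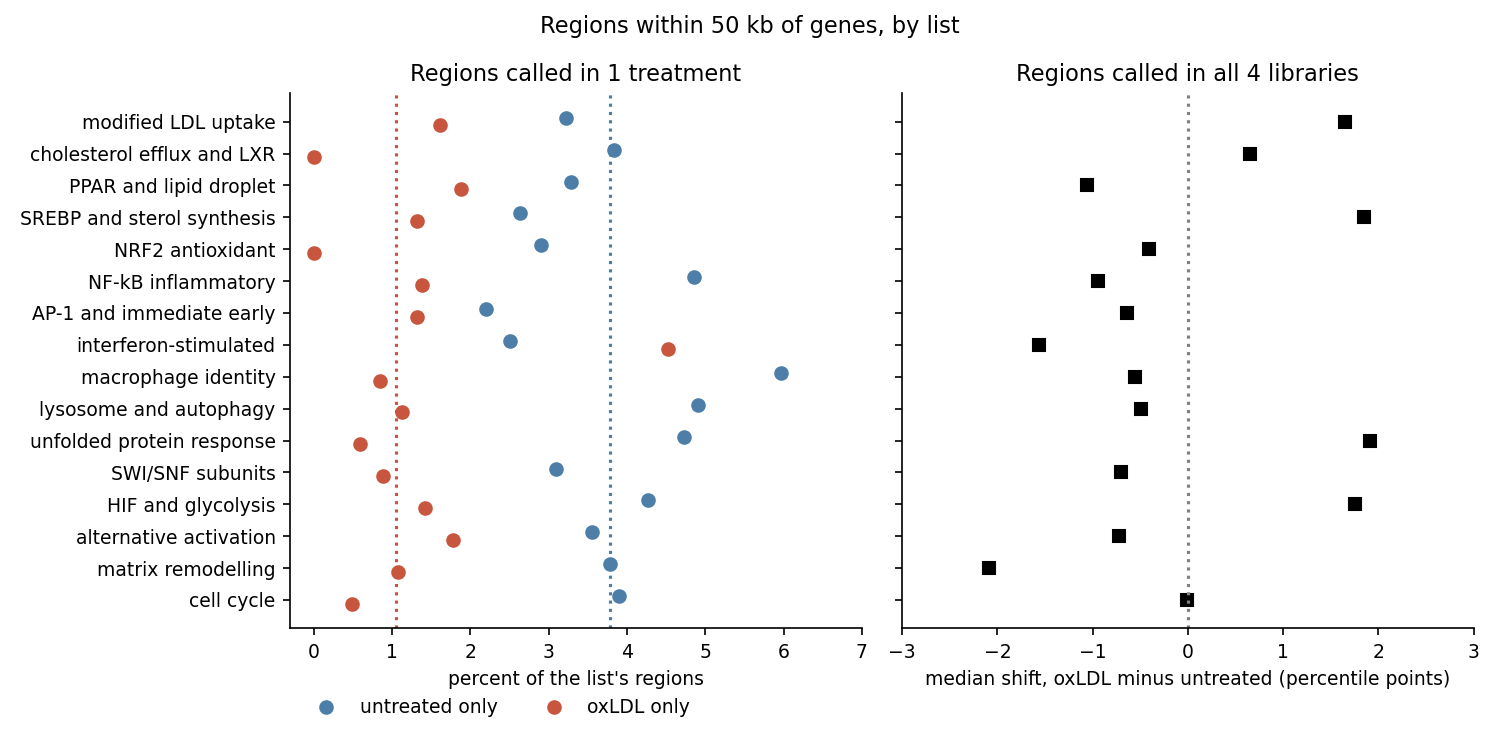
For 16 gene lists, percent of the list's regions (within 50 kb of a member gene) called in untreated libraries only (blue) or oxLDL libraries only (red), and median shift of its shared regions in percentile points (black squares). Dotted lines are the values over all regions, 3.79%, 1.05% and -0.002 points. Macrophage identity has the highest blue point, at 5.97%, and the interferon-stimulated list the highest red point, at 4.52%.

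Whether the oxLDL shift differed between KO and WT cells was tested over the 17530 regions called in all 8 libraries of the cohort. None passed (0%, lowest limma adjusted p = 0.686), and 1262 (7.20%) had an unadjusted p under 0.05. The smallest p was at a region inside Cep128, a centriole gene (chr12:91183358-91184113). In KO cells it stood at 31.0 and 39.9 untreated and at 1.39 and 3.66 with oxLDL, and in WT cells at 11.9 and 4.72 untreated and at 44.9 and 33.9 with oxLDL. The shifts were -33.0 and 31.1 points, and their difference -64.1 ± 11.4 points (SE). The next 4 lay inside Ranbp17 and near Hspa13, Camk1 and Chchd3, with differences of -23.2, -14.3, 48.7 and -51.6 points. The region near Hspa13 stood at 96.5 and 97.9 untreated and at 96.9 and 97.4 with oxLDL in KO cells.

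The direction of KO shifts was set beside the other pairs. Of the 1002 regions that ranked lower at an unadjusted p under 0.05, 63.1% also ranked lower with oxLDL in the Omni-ATAC KO pair, against 45.0% of all shared regions found there. Of the regions that ranked higher, 59.1% were higher there, against 55.0%. These pairs share no library. In WT cells, with ranks among the regions of all 8 libraries, 62.2% of 558 higher regions were higher, against 50.1% of all, and 52.2% of 600 lower regions were lower, against 49.8%. The Omni-ATAC pair has 1 library a side and ranks by score, so its values have no replicate check.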

How the data were processed

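Peaks were called per library by the authors, and the lists are on mm10. Per the submitters' processing notes, reads were handled with MACS2, Bowtie2 2.3.4.1, bedtools 2.28.0, SAMtools 1.2, Picard, cutadapt, Trim Galore and FastQC, whose roles and parameters are not given, so the treatment of reads with several placements is not given in the sources used here. Column 5 of the deposited lists is the peak score, which equals 10 times the -log10 q rounded down in all but at most 11 peaks of a list and is at least 13. Column 7 holds the fold enrichment over local background, as the authors deposited it, and columns 8 and 9 the deposited -log10 p and -log10 q. The Omni-ATAC lists give the score only. The 19 autosomes were used, and the number of reads per library is unknown.

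Peaks of the 4 libraries that overlapped by at least 1 bp were merged, and a library with any peak in a region counted as calling it. Lists of equal length hold the 33267 peaks with the highest score. Fold enrichment was compared only as a percentile rank within each library over the regions called in all, with limma 3.58.1 (trend, Benjamini-Hochberg adjustment over all such regions) in R 4.3.3. Other comparisons used exact permutation tests, two-sided, with scipy 1.17.1, pandas 2.3.3 and numpy 2.4.6 under Python 3.11.15, and plots matplotlib 3.10.9. Peaks and regions were assigned to the nearest of 20665 protein-coding genes (RefSeq, GRCm38.p6). The strand, and so the start, was known for genes with a promoter entry, and elsewhere both boundaries were used.

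The genes compared, and the 24 lists with 454 of 464 genes matched, were chosen with earlier results of these data known. Named in any case were Smarcd1, Lyz2, Apoe and 14 genes of lipid loading. Also named were the 10 strongest regions called in 1 treatment per direction, the 5 shared regions per direction and the 5 of the genotype comparison with the smallest p, and members of each list with the strongest region called in 1 treatment. Some of these genes and regions are not reported here. On simulated ranks of 23682 regions with 200 changed, the fit recovered 20.5% of log2 changes of 1, 59% of changes of 2 and 49% of changes of 3, with 0 false calls. Alternatives were lists of equal or full length, a score of at least 30, summit windows of 100 bp on each side, a cover of at least 50%, boundaries of 2.5 kb, the score column, normal scores, a replicate block, 1 fit over 8 libraries and leaving out each library.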

Additional observations from a re-analysis of the deposited data

How the results depend on the processing

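The directions for peak number, fold enrichment and score rested on untreated replicate 1. Those for covered length, width and boundary share were kept without it, but the differences were much smaller. Leaving out each library in turn gave log2 differences of -0.358 to 0.063 in peak number and -0.66 to -0.02 in covered length, and differences of -212 to -5.5 bp in width, -1.34 to 0.113 in fold enrichment, -69.3 to 11 in score and 0.376 to 1.49 points in boundary share. The values of 0.063, 0.113 and 11 were those without untreated replicate 1. So were -0.02 in covered length, -5.5 bp in width and 0.376 points in boundary share, beside -0.34, -109 bp and 0.855 points with all libraries. The boundary share reversed to -0.688 points in the stronger 50% of each list. Regions called without oxLDL only numbered 1316 with lists of equal length, 3198 when peaks had to cover 50% of a region and 3647 (without oxLDL replicate 1) to 11412 (without untreated replicate 2) with a library left out, where 1 library in place of 2 defines a side. Those called with oxLDL only numbered 994 with lists of equal length, 1061 with summit windows, and 810 (without untreated replicate 2) to 3534 (without oxLDL replicate 2) with a library left out. Lists of equal length kept 1224 (60.9%) of the 2010 and 474 (85.3%) of the 556. In limma normal scores 14 regions passed higher and 7 lower (lowest limma adjusted p = 0.00027). The other settings gave 0, with lowest limma adjusted p from 0.107 (without untreated replicate 2) to 0.8, and the genotype comparison gave 0 under each of its settings. Over the main results 73 alternatives kept the direction and the side of the threshold, 11 moved, 4 reversed and 2 newly passed, and over named regions and list counts 477 kept them, 192 moved and 40 went from none to some or newly passed. The cause of these differences was not tested.

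Same-numbered replicates did not deviate together (r = -0.033 across regions). The labels do not say whether the numbers pair the samples, and a correlation from so few libraries cannot decide it. With the replicate block limma called 0 regions (lowest limma adjusted p = 0.585), with 990 higher and 935 lower at an unadjusted p under 0.05, and 0 in the genotype comparison (0.739). The smallest permutation p within replicate numbers is 0.5. Depth limits what a missing peak can show, and the depth of these libraries is unknown, so a region called in 1 treatment is one not detected in the other, not one absent from it.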

Other observations

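Several genes held more than 1 region called in 1 treatment. Slc18a1, a vesicular monoamine transporter gene, Fat3, a cadherin gene, and Dlgap1, a postsynaptic scaffold gene, had 5 untreated-only regions each within 50 kb. Cradd, an adaptor gene of cell death, and Cd38, the NAD glycohydrolase gene of activated macrophages, had 4 each. At Cd38 peaks were called in 13 and 10 regions in the untreated libraries and in 6 and 6 with oxLDL. These genes were picked after their values were seen.

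By chromosome, untreated-only regions made up 3.31% to 4.80% of regions and oxLDL-only regions 0.740% to 1.33%. Regions that passed in limma normal scores and are not described in the report lay near Pthlh (48.5 and 27.6, then 86.3 and 89.8), which encodes parathyroid hormone-like hormone, and Btg1, an antiproliferative gene (30.8 and 24.4, then 81.9 and 84.8). Inside Efna5, an ephrin gene, a region stood at 18.2 and 17.9, then 69.1 and 86.9. On the lower side a region inside Sash1, an adaptor gene of Toll-like receptor signalling, stood at 76.9 and 70.1 untreated and 16.2 and 10.8 with oxLDL, and it ranked lower with oxLDL in the Omni-ATAC cohort too (89.4 and 63.9). The region near Inhba stood at 24.6 untreated and 67.5 with oxLDL in that cohort.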
